A study of Mus musculus with 8 samples.

Results

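Cell cycle and proliferation genes are a set of 32 genes chosen by name from the 48431 genes measured in mouse dorsal root ganglia, and all 32 were found. The ganglia hold the cell bodies of sensory neurons with their glia, vessels, connective tissue and resident macrophages. They came from wild-type mice of the SW strain given saline as a control, and their RNA gave 8 libraries, 4 with the label male and 4 with the label female. Both groups share the strain, the genotype and the saline. The ages are not given in the labels, nor is it stated if each library comes from 1 animal or several, so p-values measure only the spread between these libraries, which may be partly technical.

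A dividing cell copies its DNA and then separates the copies in mitosis. The MCM helicase is loaded at replication origins, PCNA clamps the polymerase to DNA, and cyclins switch on the kinases that drive each step. At mitosis, kinetochores tie the chromosomes to spindle microtubules, a checkpoint waits until every chromosome is tied, and the anaphase-promoting complex then marks the cyclins for destruction. Many of these genes are shut off in cells that do not divide and are switched on together by E2F and by complexes that bind CCAAT boxes and a short element called the cell cycle homology region. Adult sensory neurons do not divide, while glia, immune cells and fibroblasts of the ganglion can.

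The libraries held between 7497795 and 12155804 counted reads, where 3 reads equal 0.247 to 0.400 CPM (reads per 1000000 counted reads). Reads come from the 3′ end of each transcript whatever its length, so the CPM of different genes are set side by side without a length correction. In both replicate 1 libraries sex-linked transcripts contradicted the label. The library labelled male 1 had 294 CPM of Xist, an RNA of the silenced X chromosome, and the one labelled female 1 had 0.270 CPM, while the Y-linked helicase gene Ddx3y had 0.855 and 102 CPM. The counts of calls by label, and the differences of the genes described in most detail, are therefore given with and without both replicate 1 libraries. The library labelled male 2 also held central nervous system transcripts, with a summed level of 344 CPM over 10 marker genes against 12.5 to 23.4 CPM in the other 7. The markers of the labelled tissue were present, with Uchl1, a deubiquitinase abundant in neurons, at a mean of 4759 CPM and Nefl, a neurofilament gene, at 2971 CPM.

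Most of the cell cycle genes were low in the ganglia. Of the 32, 7 averaged 10 CPM or more, 7 lay between 5 and 10 CPM, 12 between 1 and 5 CPM and 6 under 1 CPM. A mean of 1 CPM over the libraries was the minimum for the test, so 26 members (81.2%) were tested, where 30.02% of all gene symbols reached it. The median level of the tested members was 5.27 CPM, where that of all 14505 tested genes was 15.2 CPM. Mki67, the nuclear protein used as a stain for dividing cells, had between 3.91 and 7.40 CPM, that is, 31 to 74 reads per library. The most abundant member was Cenpf, with a mean of 58.7 CPM, followed by Birc5 at 23.8, Mcm4 at 22.1, Ube2c at 19.1, Cenpa at 19.0, Top2a at 16.5 and Ccna2 at 11.3 CPM. The members of the set thus did not stand at a common level, and Cdk1, the kinase at the centre of mitotic entry, had a mean of 1.38 CPM.

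**Figure D1:**
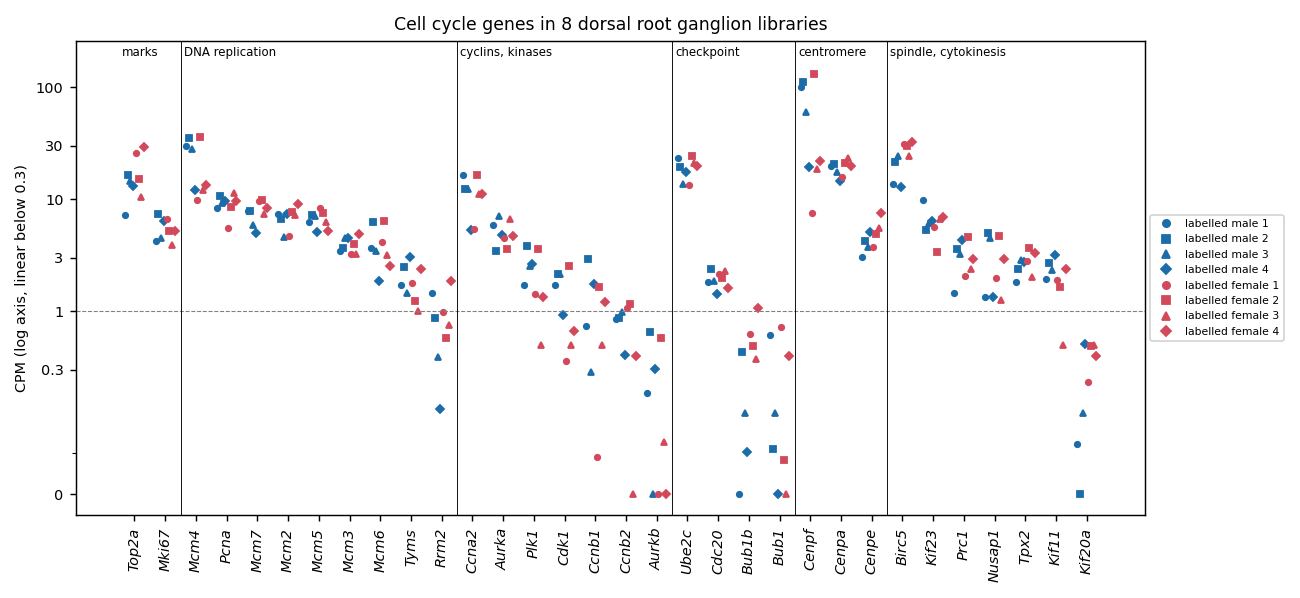
Level of each of the 32 cell cycle genes in each library, grouped by role and ordered by mean within a role. The vertical axis is CPM on a log scale that is linear below 0.3, each point is a library, and the dashed line marks 1 CPM. Cenpf, Mcm4 and Ccna2 spread widely between libraries, while Cenpa stayed between 14.7 and 23.3 CPM.

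The promoters of the members shared sequence elements that played no part in choosing them. Windows from 250 bases before to 50 bases after the transcript start were found for 27 of the 32 members among RefSeq promoters of GRCm38.p6, and were searched on both strands. The core of the cell cycle homology region, TTTGAA, was present for 15 of the 27 (55.6%), where 20.2% of the 27025 genes in the promoter table had it. The CCAAT box, letters CCAAT, was present for 24 (88.9%, against 41.1% of all genes). The E2F cores, searched as TTCCCGC or TTCGCGC or TTGCCGC or TTGGCGC, of which TTCGCGC and TTGGCGC can overlap their own reverse complement and TTGGCGC a reversed CCAAT box, were present for 8 (29.6%, against 10.9%). All 15 members with the homology core also had a CCAAT box, a combination held by 7.97% of all genes. By role, CCAAT boxes were present for 7 of 8 replication members and for all members with a window in every other role except spindle and cytokinesis (3 of 5). E2F cores were present for 5 of 8 replication members, namely Mcm3, Mcm5, Mcm6, Mcm7 and Rrm2, and the homology core for 1 of these 8, Mcm2. The other members with an E2F core were Ccnb1, Cdk1 and Mki67, and no difference between roles was tested. Among the 5 cyclin and kinase members with a window the homology core was present for 4, and among the 4 checkpoint and mitotic exit members for 3. A match is a run of letters and not a shown binding site. The 8 sequences that follow were chosen with the values known, Cenpf, Birc5, Top2a and Ube2c as abundant members, Mki67 as the usual marker, Cdk1 as the central kinase with all 3 kinds of element, Mcm6 for E2F cores and Ccnb2 as a mitotic promoter. Each runs 5′ to 3′ on the strand of its gene, from 200 bases before the transcript start to 20 bases from it, with every motif match in capitals.
Mki67 (chr7:135716360-135716579, minus strand): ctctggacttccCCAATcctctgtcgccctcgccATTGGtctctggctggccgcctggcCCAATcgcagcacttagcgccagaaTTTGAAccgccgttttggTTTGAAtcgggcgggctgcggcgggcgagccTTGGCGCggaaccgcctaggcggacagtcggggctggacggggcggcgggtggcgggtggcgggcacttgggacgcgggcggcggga
Top2a (chr11:99024170-99024389, minus strand): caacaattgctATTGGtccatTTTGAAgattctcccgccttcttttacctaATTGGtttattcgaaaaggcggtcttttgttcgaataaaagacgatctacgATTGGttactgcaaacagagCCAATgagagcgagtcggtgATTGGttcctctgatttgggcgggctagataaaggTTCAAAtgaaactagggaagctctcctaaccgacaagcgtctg
Mcm6 (chr1:128359686-128359905, minus strand): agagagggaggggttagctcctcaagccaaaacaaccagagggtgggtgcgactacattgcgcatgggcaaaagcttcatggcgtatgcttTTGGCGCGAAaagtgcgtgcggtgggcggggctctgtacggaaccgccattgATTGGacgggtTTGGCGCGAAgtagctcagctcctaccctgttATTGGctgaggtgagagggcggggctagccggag
Cdk1 (chr10:69352893-69353112, minus strand): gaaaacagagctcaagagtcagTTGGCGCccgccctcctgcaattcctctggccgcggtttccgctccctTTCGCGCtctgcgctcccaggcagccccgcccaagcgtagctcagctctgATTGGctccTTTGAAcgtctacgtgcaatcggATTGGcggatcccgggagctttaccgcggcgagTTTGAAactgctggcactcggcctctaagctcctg
Ccnb2 (chr9:70421535-70421754, minus strand): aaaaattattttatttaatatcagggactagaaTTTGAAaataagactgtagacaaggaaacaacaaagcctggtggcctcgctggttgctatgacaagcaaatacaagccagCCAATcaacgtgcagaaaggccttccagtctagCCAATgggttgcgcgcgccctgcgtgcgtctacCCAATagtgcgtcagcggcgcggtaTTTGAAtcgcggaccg
Ube2c (chr2:164769729-164769948, plus strand): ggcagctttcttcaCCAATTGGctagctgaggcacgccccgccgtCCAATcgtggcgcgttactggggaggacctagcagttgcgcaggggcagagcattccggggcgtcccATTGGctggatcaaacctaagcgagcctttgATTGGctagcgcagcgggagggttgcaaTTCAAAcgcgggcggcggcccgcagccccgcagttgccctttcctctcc
Cenpf (chr1:189688067-189688286, minus strand): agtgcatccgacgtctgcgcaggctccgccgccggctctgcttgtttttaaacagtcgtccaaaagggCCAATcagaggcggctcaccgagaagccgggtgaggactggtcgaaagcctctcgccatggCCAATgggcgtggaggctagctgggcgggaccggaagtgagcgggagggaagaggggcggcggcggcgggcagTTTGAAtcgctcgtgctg
Birc5 (chr11:117849037-117849256, plus strand): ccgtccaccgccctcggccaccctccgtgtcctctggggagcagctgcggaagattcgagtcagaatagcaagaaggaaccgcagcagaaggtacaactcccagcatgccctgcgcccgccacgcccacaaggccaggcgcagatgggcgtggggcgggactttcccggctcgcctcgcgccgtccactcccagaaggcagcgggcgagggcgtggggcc
The Cenpf sequence has CCAAT boxes starting 132 and 71 bases before the transcript start and the homology core at position 3 after it. In Cdk1 the homology core lies 71 and 15 bases before the start, among CCAAT boxes in reverse and E2F cores. In Ube2c it lies in reverse, 29 bases before the start, and Top2a has it in reverse 23 bases and on its own strand 179 bases before the start. Birc5 shows none of the searched letters in this window, and neither did Nusap1 and Tyms in theirs.

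**Figure D2:**
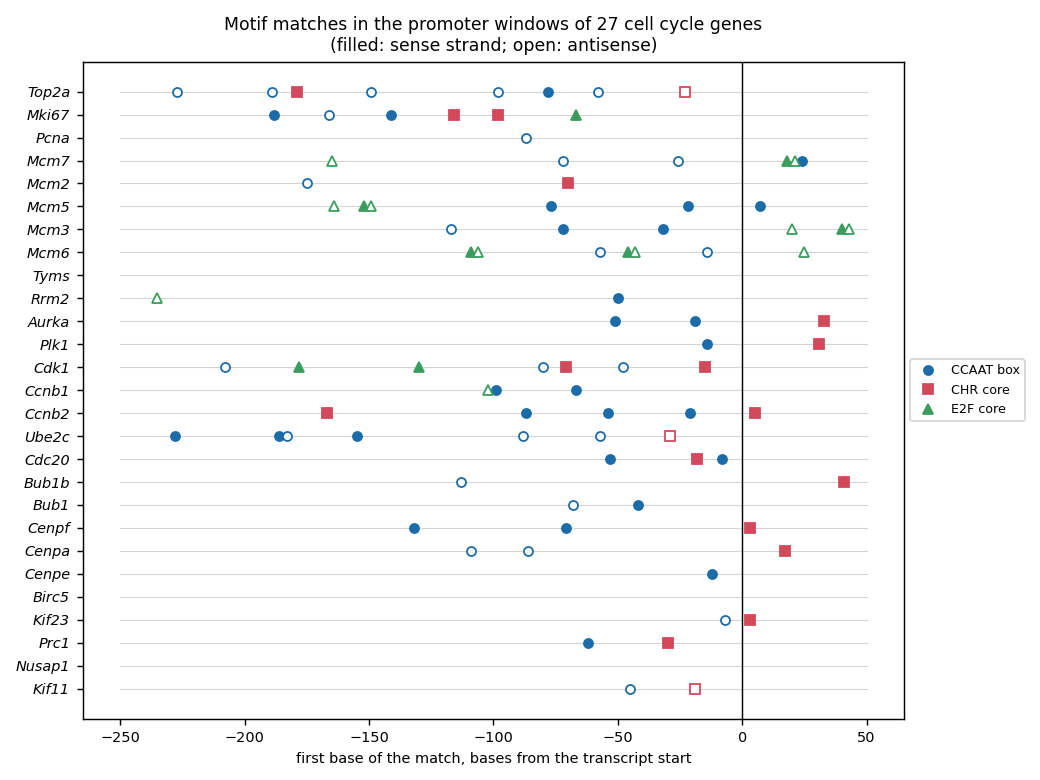
Position of each motif match in the promoter windows of 27 cell cycle genes, with 1 window drawn for each gene. The horizontal axis is the distance of the first base of the match from the transcript start in bases, squares are the core of the cell cycle homology region (CHR), circles CCAAT boxes and triangles E2F cores, and filled symbols lie on the gene's strand. Matches to the homology core are frequent close to the start in mitotic genes, and E2F cores in the MCM genes.

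Replication genes were led by Mcm4, which stood apart from its partners in the MCM helicase. The helicase is a ring of 6 different subunits, encoded by Mcm2 to Mcm7, that opens the DNA ahead of the replication fork. Mcm4 (chromosome 16, 15623897 to 15637400 in GRCm38) had 29.9, 35.1, 28.3 and 12 CPM in the libraries labelled male 1 to 4, and 9.83, 35.7, 12.1 and 13.5 CPM in those labelled female 1 to 4. The values fell into a high set of male 1, male 2, male 3 and female 2 and a low set of the other 4, so the labels overlapped. The mean of Mcm2, Mcm3, Mcm5, Mcm6 and Mcm7 stayed between 4.78 and 7.06 CPM over the same libraries. Mcm4 was 5.06 to 5.54 times that mean in the 4 libraries where it was high, and 1.63 to 2.51 times in the other 4. Of the other subunits, Mcm6 was the most variable, between 1.85 and 6.42 CPM, and Mcm3 the least, between 3.25 and 4.93 CPM.

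The other replication genes were low. Pcna, the sliding clamp, had between 5.59 and 11.3 CPM, with the lowest value in female 1 and the highest in female 3. Tyms, which makes thymidylate for DNA synthesis, had 8 to 30 reads per library. Rrm2, the S phase subunit of ribonucleotide reductase, fell under the minimum at a mean of 0.891 CPM, with 2 to 14 reads. By label, Mcm4 had 26.4 ± 9.997 CPM in male and 17.8 ± 12.05 CPM in female libraries (SD, n = 4), log2 difference −0.63 (SE 0.42, limma adjusted p = 0.490), and −0.33 without both replicate 1 libraries. Mcm7 had 6.67 ± 1.44 and 8.84 ± 1.14 CPM (log2 difference 0.37, SE 0.23, limma adjusted p = 0.473, and 0.40 without both replicate 1 libraries), but its 3′ end overlaps that of Cops6 on the opposite strand. Cops6 had a mean of 183 CPM, and since it is not known whether reads were counted by strand, the Mcm7 reads cannot be told from it.

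Among cyclins and mitotic kinases, Ccna2 and Cdk1 were high in the same 4 libraries as Mcm4. Ccna2 encodes cyclin A2, which acts in S phase and at the entry to mitosis. It had 16.5, 12.4, 12.3 and 5.33 CPM in male 1 to 4 and 5.41, 16.4, 11.1 and 11.2 CPM in female 1 to 4. Male 4 and female 1 were low, and female 3 and female 4 lay just under male 3. The 3′ end of Ccna2 overlaps that of Exosc9, a subunit gene of the RNA exosome on the opposite strand, which had 4.89 to 13.7 CPM. Cdk1 had 14, 20, 22 and 9 reads in male 1 to 4 and 4, 31, 4 and 5 reads in female 1 to 4, or between 0.361 and 2.55 CPM. At that depth the interval of a single library is wide, from 0.0982 to 0.923 CPM for the lowest and from 1.73 to 3.62 CPM for the highest (95% exact binomial, counting error only).

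The B-type cyclins and Aurkb were low. Ccnb1, the main partner of Cdk1 in mitosis, had 6, 27, 3 and 17 reads in male 1 to 4 and 1, 20, 4 and 9 reads in female 1 to 4. Its values thus ran from 1 read to 27 reads with no order by label. Ccnb2 had at most 14 reads and Aurkb, the kinase of the chromosomal passenger complex, at most 7, with 0 reads in 3 libraries. Aurka, the kinase of the spindle poles, had between 3.48 and 7.16 CPM and Plk1, a kinase that acts throughout mitosis, between 0.504 and 3.81 CPM. All 5 tested members of this role had a negative log2 difference by label, from −0.07 for Ccna2 to −0.53 for Cdk1, where 67.5% of all tested genes were negative. None of the 5 passed limma over all genes (adjusted p from 0.481 to 0.939). Without both replicate 1 libraries the difference of Ccna2 was 0.40, and it also turned positive under median ratio scaling (0.12), as did that of Aurka (0.07).

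Checkpoint and exit genes showed 1 abundant member. Ube2c, which encodes the ubiquitin-conjugating enzyme of the anaphase-promoting complex, had 23.6, 19.6, 13.8 and 17.5 CPM in male 1 to 4 and 13.5, 24.1, 21.0 and 20.01 CPM in female 1 to 4. Its range was narrow, 1.78-fold, and the labels overlapped (log2 difference 0.07, SE 0.24, limma adjusted p = 0.896, and 0.35 without both replicate 1 libraries). The 3′ end of Ube2c overlaps Tnnc2, a skeletal muscle troponin gene on the opposite strand, with 43.6 to 376 CPM. Tnnc2 was lowest in female 3 and male 4, at 43.6 and 124 CPM, where Ube2c stood at 21.0 and 17.5 CPM. The part of Tnnc2 in the Ube2c reads was not tested. Cdc20, the activator of the anaphase-promoting complex, had 12 to 24 reads per library, and its SD over the 8 libraries was 0.714 times that of counting alone. Its 3′ end overlaps Elovl1 on the opposite strand, which had a mean of 91.6 CPM. The checkpoint kinase genes Bub1 and Bub1b were under the minimum, with at most 8 reads in any library and 0 reads in 2 and in 1 of them.

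Cenpf had the largest spread of the members relative to counting error. It encodes a large kinetochore and nuclear matrix protein that builds up before mitosis. Cenpf (chromosome 1, 189640606 to 189688086) had 101.3, 111, 59.8 and 19.4 CPM in male 1 to 4 and 7.57, 130, 18.8 and 21.7 CPM in female 1 to 4, from 84 to 1581 reads. The high libraries were those of Mcm4, and the gap between the lowest of these 4 and the highest of the others was wide, 59.8 against 21.7 CPM. The counting intervals of the lowest and the highest library were 6.04 to 9.37 and 124 to 137 CPM. Its SD over the 8 libraries was 19.1 times that of counting alone, and its highest value 17.2 times the lowest, a ratio that was larger (32.6) only for Ccnb1 with its 1 to 27 reads, among members with reads in every library. By comparison, Cenpa, the histone that marks centromeres, had between 14.7 and 23.3 CPM, and Cenpe, a kinetochore motor, between 3.05 and 7.60 CPM. The ratio of Cenpf to Cenpe went from 2 in female 1 to 33.2 in male 1. Cenpf alone made up 4.12% to 35.9% of the summed level of the 32 members, which ran from 174 to 362 CPM with it and from 155 to 232 CPM without it. By label Cenpf had 72.9 ± 42.1 CPM in male and 44.5 ± 57.3 CPM in female libraries (SD, n = 4), log2 difference −1.20 (SE 0.76, limma adjusted p = 0.480), and −0.41 without both replicate 1 libraries.

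**Figure D3:**
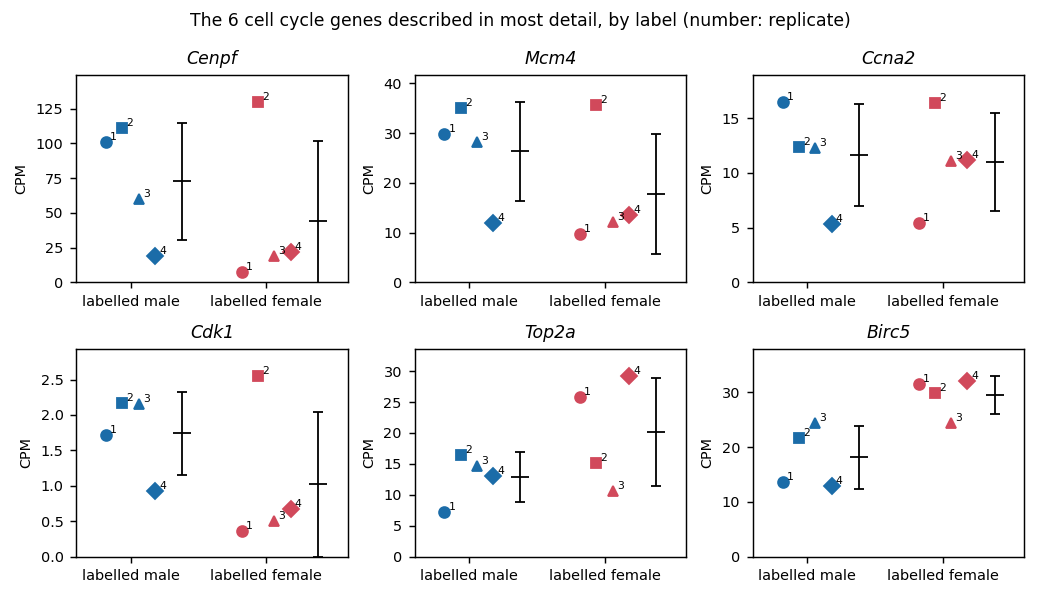
CPM of Cenpf, Mcm4, Ccna2, Cdk1, Top2a and Birc5 in each library, by label, with the replicate number beside each point. The bar and whisker at the right of each label are the mean and SD of 4 libraries, with the whisker ended at 0. For Cenpf, Mcm4 and Cdk1 the libraries labelled male 4 and female 2 lie with those of the other label, and Birc5 does not overlap between the labels.

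The split of the libraries seen for Cenpf, Mcm4, Ccna2 and Cdk1 was common in the transcriptome. Male 1, male 2, male 3 and female 2 were the 4 highest libraries for 3352 of the 14505 tested genes (23.1%) and for these 4 of 26 tested members (15.4%). They were the 4 lowest for 1478 tested genes (10.2%) and for 0 members. The share among the members was thus not above that of all genes. A gene of the ribosomal RNA locus, AY036118, was between 20085 and 46216 CPM in these 4 libraries and at 43401 CPM in female 1, and was listed at 0 in male 4, female 3 and female 4, and its part in the split was not tested. Nor did the members follow these 4 libraries as a set, since Top2a, Birc5, Mki67, Cenpa and the other MCM genes had other orders.

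Summed markers of several other cell types moved with the same libraries. The summed level of 12 genes of neutrophils and their precursors, led by S100a9 and S100a8, was 221, 456, 453 and 128 CPM in male 1 to 4 and 148, 343, 133 and 122 CPM in female 1 to 4. That of 6 fibroblast genes, led by Col1a2 and Dcn, was between 1573 and 2418 CPM in the 4 libraries where Cenpf was high and between 630 and 1482 CPM in the other 4. The immunoglobulin gene Ighm of B cells had 6.11 to 12.7 CPM against 0.992 to 1.54 CPM. It belongs to a list of 10 B and T lymphocyte genes, of which 8 overlapped and only 2 reached the minimum for the test. The sum of 9 sensory neuron markers went the other way, at 7936 to 12731 CPM against 14210 to 18328 CPM, but 6 of the 9 overlapped between the sets of libraries. The gap came from Uchl1, at 1551 to 3371 CPM against 4591 to 9133 CPM, with Prph and Avil in the same direction, and without Uchl1 the sums overlapped, at 6385 to 9360 CPM against 8781 to 10182 CPM. Without their most abundant gene the fibroblast sums (956 to 1498 against 411 to 995 CPM) and the satellite glia sums (969 to 1269 against 814 to 1011 CPM) overlapped too, while the neutrophil sums did not (120.1 to 274 against 71.6 to 93.7 CPM). Among all tested genes, the libraries where Cenpf was high were the 4 highest for 23.1% and the 4 lowest for 10.2%. The counts of marker genes without overlap are to be read beside those shares. Gene by gene, 10 of the 12 neutrophil genes overlapped between the sets, all but S100a8 and S100a9. So did 5 of the 6 fibroblast genes, all but Col1a2. The myelin gene Mbp had 2013 to 2791 CPM against 1232 to 1893 CPM. Satellite glia markers stood at 1358 to 1899 CPM against 1134 to 1297 CPM, but 4 of the 8 genes overlapped and Ednrb went the other way. Erythroid markers stood at 1238 to 3088 CPM against 957 to 1236 CPM, a narrow step, and 6 of the 9 genes overlapped while Hba-a2 went the other way. Without Hba-a1, the most abundant, the erythroid sums did not overlap, at 601 to 1112 against 453 to 581 CPM. The endothelial sums overlapped, between 111 and 144 CPM in all 8. Without their most abundant gene, Cldn5, they did not, at 98.4 to 110 against 55.0 to 81.9 CPM. Of the 6 endothelial genes 3 overlapped, Cdh5 and Kdr were higher where Cenpf was high, and Cldn5 went the other way. The macrophage sum was lower where Cenpf was high, at 167 to 262 CPM against 263 to 394 CPM, a narrow step. Without its most abundant gene, C1qa, it overlapped, at 77.3 to 119 against 103 to 142 CPM. Of the 9 macrophage genes 6 overlapped, Aif1 was lower, and Csf1r and Adgre1 went the other way. By label, the neutrophil sum was 128 to 456 CPM in male and 122 to 343 CPM in female libraries, the fibroblast sum 1135 to 2287 and 630 to 2418 CPM, and the neuron sum 7936 to 14210 and 10298 to 18328 CPM. In these lists 0 genes were at 0 in all libraries. The part of these cells in the levels of Cenpf, Mcm4, Ccna2 and Cdk1 was not tested, and in RNA of whole ganglia fewer cells of a type and less RNA per cell cannot be told apart.

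**Figure D4:**
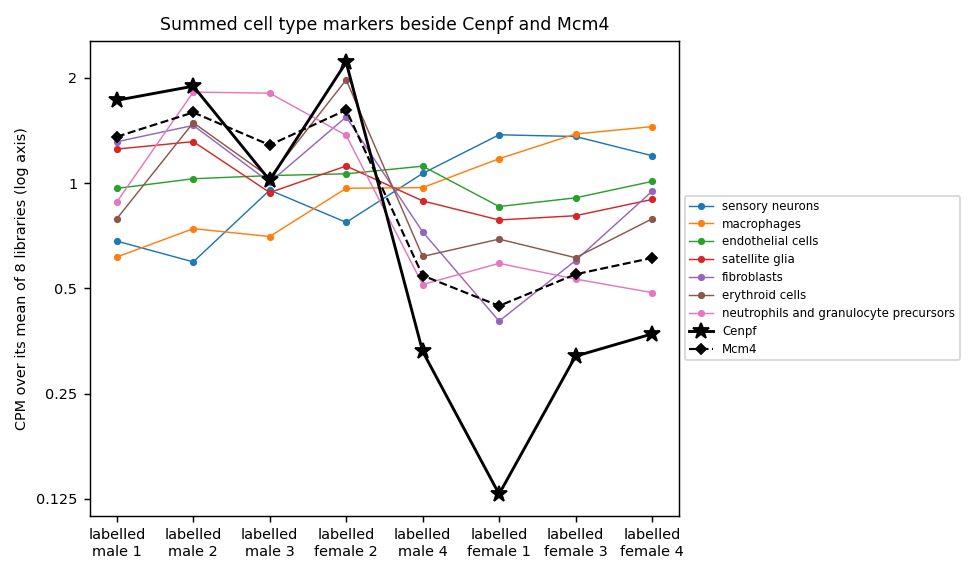
Summed CPM of 7 lists of cell type markers in each library, beside Cenpf and Mcm4, each divided by its own mean over the 8 libraries (log axis). The 4 libraries in which Cenpf was high are on the left. The summed fibroblast, satellite glia, neutrophil and erythroid markers are higher there and the summed neuron and macrophage markers lower. Without their most abundant gene the fibroblast, satellite glia, neuron and macrophage sums overlap.

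Chromosome and spindle genes included the members with the largest positive differences by label. Top2a, the topoisomerase that untangles replicated chromosomes, had 7.21, 16.4, 14.7 and 13.0 CPM in male 1 to 4 and 25.8, 15.1, 10.6 and 29.2 CPM in female 1 to 4. Female 1 and female 4 were high and male 1 was low, and the other 5 libraries overlapped. Its log2 difference was 0.57 with an SE of 0.35 (limma adjusted p = 0.476), and 0.19 without both replicate 1 libraries. The ratio of Top2a to Mki67 ranged from 1.69 to 5.62.

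Birc5 encodes survivin, a member of the chromosomal passenger complex that also restrains cell death. Birc5 (chromosome 11, 117849251 to 117855743) had 13.7, 21.6, 24.3 and 12.8 CPM in male 1 to 4 and 31.5, 29.9, 24.4 and 32.1 CPM in female 1 to 4. It was the only tested member whose labels did not overlap, by the narrow step from male 3 to female 3. Labels did not overlap for 4.23% of all tested genes, and for 1.23% with the female libraries higher, so 1 of 26 members is near the share in either direction. The means were 18.1 ± 5.73 and 29.5 ± 3.49 CPM (SD, n = 4), the log2 difference was 0.72 with an SE of 0.25, and the unadjusted limma p was 0.0142, adjusted 0.446. The library labelled male 1, in which Xist was high, had 13.7 CPM, and female 1 had 31.5 CPM. Without these the log2 difference was 0.57 (limma adjusted p = 0.946). The summed level of 9 macrophage markers, led by C1qa and Mrc1, was 167, 201.1, 191 and 263 CPM in male 1 to 4 and 319, 262, 375 and 394 CPM in female 1 to 4. It was thus higher in 3 of the 4 female libraries than in any male one. The 4 lowest sums were those of male 1, male 2, male 3 and female 2, the libraries where Cenpf was high. The part of these markers in the level of Birc5 was not tested. Most of the difference of the sum by label was C1qa, at 106 ± 28.2 and 218 ± 53.9 CPM (SD, n = 4), while the means of 3 of the 9 genes, Csf1r, Adgre1 and C1qb, were lower in female. Without C1qa the sums overlapped between the labels, at 77.3 to 124 and 103 to 142 CPM. The level of Birc5 was above that of its partner Aurkb, whose mean was 0.238 CPM.

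The other spindle and cytokinesis genes, except Kif20a, lay between 1 and 10 CPM in most libraries. Kif23, a motor of the midzone in dividing cells, had between 3.37 and 9.90 CPM, lowest in female 2 and highest in male 1. Prc1, which bundles midzone microtubules, had 12 to 56 reads and Tpx2, an activator of Aurora A, 15 to 45 reads. Nusap1, a microtubule binding protein, had 46, 46 and 57 reads in male 2, male 3 and female 2 and 10 to 22 reads in the other 5. Kif11, the motor that separates spindle poles, had 4 reads in female 3 and 16 to 31 reads elsewhere. Kif20a stayed under the minimum at 0 to 6 reads, and 5 members in all had 0 reads in at least 1 library. Prc1 and Kif20a overlap genes on the opposite strand at their 3′ ends, Rccd1 and Cdc23.

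The question of the comparison by label is whether the level of cell cycle genes differs between male and female ganglia. Limma called 0 of 26 tested members over all 8 libraries, where 0% of the 14505 tested genes were called, and 1 member, Birc5, had an unadjusted p under 0.05, where 11% of all genes did. Of the 26, 11 had a positive and 15 a negative log2 difference, where 67.5% of all tested genes were negative. The median difference was −0.06 and that of all tested genes −0.18, so the members lay on average slightly above that shift. Under median ratio scaling both medians moved up, to 0.10 for the members and −0.01 for all genes. The interval of a single difference was wide: for Mki67 it ran from −0.63 to 0.48 and for Cenpf from −2.88 to 0.47 (95%, on the log2 scale). A count of 0 therefore does not show equal levels. Without both replicate 1 libraries limma called 6 genes (0.0414% of those tested, 0.00689% higher and 0.0345% lower in female), namely Xist and 5 genes of the Y chromosome, and 0 members, none of which had an unadjusted p under 0.05, where 2.43% of all genes did. The median difference of the members was then −0.03.

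**Figure D5:**
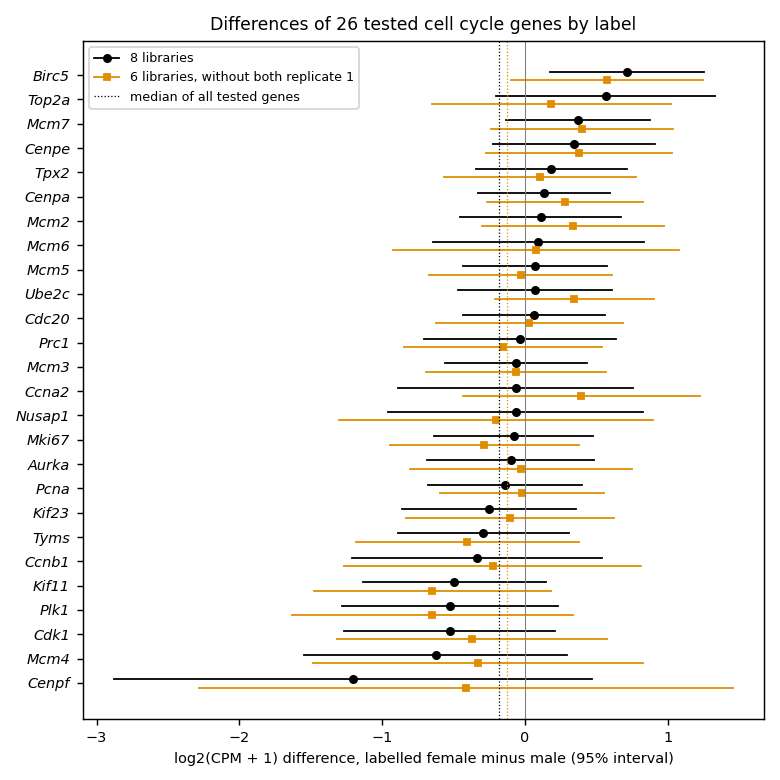
Log2 difference of each of the 26 tested cell cycle genes, labelled female minus male, with its 95% limma interval, from all 8 libraries (circles) and from 6 libraries without both replicate 1 (squares). Dotted lines mark the median of all tested genes. With 8 libraries the interval of Birc5 lies above 0, and with 6 libraries all intervals cover 0.

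The count of 0 members depended on the library labelled female 2 and on weighting libraries alike. Without female 2, limma called 1 member, Cenpf, at −1.97 on the log2 scale (adjusted p = 0.0415), where 9.33% of all genes were called. With array weights, which count down libraries far from their group, it called 6 members (23.1%), Birc5, Cenpe and Top2a higher and Cdk1, Cenpf and Mcm4 lower in libraries labelled female, where 30.1% of all genes were called. The share of members was below that of all genes with array weights.

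Other genes of the pathway were taken from 4 lists of regulators and machinery, and 0 of them passed limma in either direction in the 8 libraries. Of 18 tested G1 cyclins, kinases and E2F factors, 4 had a positive and 14 a negative difference, with a median of −0.13 (3 and 15 without both replicate 1 libraries, median −0.17). E2f1, a transcription factor that drives S phase genes, was the most abundant at a mean of 111 CPM, far above most of the members whose promoters hold E2F cores. It had 59.3, 86.4, 116 and 100.7 CPM in male 1 to 4 and 187, 109, 101.1 and 130 CPM in female 1 to 4, so the labels overlapped (log2 difference 0.54, SE 0.26, limma adjusted p = 0.446, and 0.17 without both replicate 1 libraries). Ccnd2, a D-type cyclin of G1, had 91.8 ± 17.5 CPM in male and 92.0 ± 17.2 CPM in female libraries (SD, n = 4). E2f4, a factor of the repressor complexes of resting cells, had 6.67 ± 3.17 and 2.94 ± 2.93 CPM, and the E2F partner gene Tfdp1 11.0 ± 2.02 and 7.09 ± 1.88 CPM. For E2f4, but not Tfdp1, the 4 highest libraries were male 1, male 2, male 3 and female 2, as for 23.1% of all tested genes.

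Inhibitors of the cycle included 2 genes, Cdkn2d and Cdkn1b, with a higher mean level than any member. Of 13 tested inhibitor and pocket protein genes, 4 had a positive and 9 a negative difference, with a median of −0.21 (the same counts without both replicate 1 libraries, median −0.095). Cdkn2d, an inhibitor of the D-type cyclin kinases, had a mean of 240 CPM, from 93.3 CPM in female 1 to 374 CPM in female 2. Cdkn1b, the inhibitor p27, had 74.5 ± 15.1 and 46.1 ± 31.1 CPM (log2 difference −0.89, SE 0.41, limma adjusted p = 0.446, and −0.45 without both replicate 1 libraries). Its values ran from 17.1 CPM in female 1 to 89.8 CPM in female 2. Rb1, the retinoblastoma gene that holds E2F in check, had 63.4 ± 12.1 and 43.6 ± 11.0 CPM, and Lin54, a subunit of the complex that binds the homology region, 26.6 ± 8.16 and 16.8 ± 9.54 CPM. Both overlapped between the labels. For Cdkn2d, Cdkn1b, Rb1 and Lin54 the 4 highest libraries were male 1, male 2, male 3 and female 2, as for 23.1% of all tested genes.

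Further replication and mitosis genes ran in both directions. Of 31 tested replication genes 13 had a positive and 18 a negative difference, and of 33 mitosis genes 15 and 18, with medians of −0.07 and −0.14. Without both replicate 1 libraries the balance turned for the mitosis genes, to 18 positive and 15 negative with a median of 0.03, and the replication genes had 15 and 16 with a median of −0.0034. Lig1, the ligase that joins Okazaki fragments, had 41.7, 56.9, 75.3 and 91.8 CPM in male 1 to 4 and 119, 83.7, 156 and 144 CPM in female 1 to 4. Female 2 alone lay below the highest male library, and the log2 difference was 0.93 with an SE of 0.28 (limma adjusted p = 0.446, unadjusted 0.00716), and 0.75 without both replicate 1 libraries. Rpa1, which coats single-stranded DNA, had 62.7 ± 13.6 and 96.0 ± 20.9 CPM, the clamp loader gene Rfc2 28.7 ± 8.06 and 47.1 ± 13.7 CPM, and Rfc1 103 ± 22.0 and 138 ± 13.0 CPM. For Lig1, Rpa1, Rfc2 and Rfc1 the 4 lowest libraries were male 1, male 2, male 3 and female 2, as for 10.2% of all tested genes. Ckap2, a spindle protein, had 1.71, 2.94, 2.16 and 2.67 CPM in male 1 to 4 and 0.541, 1.32, 0.630 and 0.934 CPM in female 1 to 4, with no overlap (log2 difference −0.86, SE 0.24, limma adjusted p = 0.446, and −0.88 without both replicate 1 libraries). It was named for the smallest p of its list, and labels did not overlap for 4.23% of all tested genes. Its levels were low, where 3 reads equal 0.247 to 0.400 CPM. The kinetochore genes Spc24 and Spc25 had 14.9 ± 5.86 and 26.6 ± 8.71, and 1.32 ± 0.235 and 2.73 ± 1.24 CPM. Smc4, a condensin subunit, and Dlgap5, a spindle protein, were the most abundant mitosis genes, at means of 86.5 and 36.4 CPM, and their levels were above that of Mki67 in each library.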

How the data were processed

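RNA of dorsal root ganglia was measured in 8 QuantSeq 3′ libraries after depletion of ribosomal RNA, per the labels' protocols. The submitters' processing notes name Cufflinks 2.2.1, Bowtie2 2.2.9, TopHat2 2.1.1 and FastQC 0.11.5, with GRCm38.p4 and mm10 as builds, without roles. Annotation, filters and strand setting were not given in the sources used here. Deposited values carry the name TPM but behave as CPM, since each library sums to 1000000 and 98.3% to 98.6% of its values above 0 and under 200 reads equal a whole number (tolerance 0.05) of a common step, the value of 1 read. That step gave the depth and the reads per gene. As the other values were fractions, no count model was used and the planned count test was not run.

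Rows with the same symbol were summed. Genes averaging 1 CPM or more were tested as log2(CPM + 1) with limma 3.58.1 in R 4.3.3 (variance trend, two-sided, Benjamini-Hochberg over all 14505 tested genes, threshold 0.05). Fold changes on that scale understate those of low genes. The fit was tested on simulated data. Alternatives were other pseudocounts (0.5, 0.1), filters, scalings, variance models, a block for the replicate number, array weights, a term for the 3 libraries with a ribosomal RNA locus listed at 0, and leaving out libraries. The members, lists and tests were chosen with earlier results of these data known. Named were all members and, of each other list, the genes with the smallest p and the highest level; Tnnc2 and the other overlapping genes were named from the annotation. Gene positions are from GENCODE M21 (GRCm38), matched by gene identifier. The SD of counting alone is that expected from reads at the pooled level. Intervals and floors cover counting error only. Of the marker lists, 1 is not reported here. Sums without a list's most abundant gene were chosen after seeing the values. All 28 pairs of libraries differed.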

Additional observations from a re-analysis of the deposited data

How the results depend on the processing

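Direction and call were kept in 426 of 482 alternatives over the 26 tested members, 49 turned the sign and 7 added a call, and 12 members changed sign in none. With array weights 4363 genes and 6 members were called. Without both replicate 1 libraries 6 genes were called, the median of the members was −0.03, and Ccna2 (0.40) and Mcm5 (−0.030) turned. Leaving out 1 library gave 0 to 1354 genes, 0 to 1 members and medians from −0.09 to 0.04, the high counts without female 2. On 6 libraries it gave 3 to 5 genes (3 without male 3 or female 4), 0 members and medians from −0.06 to 0.05. Quantile normalization moved the median of the members to 0.23, and to 0.16 on 6 libraries. Median ratio scaling turned Mki67 (0.10), Ccna2 (0.12), Aurka (0.071), Nusap1 (0.069), Prc1 (0.11), Mcm3 (0.10) and Pcna (0.044). Quantile normalization turned Mki67 (0.21), Ccna2 (0.19), Aurka (0.21), Kif23 (0.035), Nusap1 (0.21), Prc1 (0.25), Mcm3 (0.24), Pcna (0.12) and Tyms (0.0089). Array weights turned Cdc20 (−0.082), Prc1 (0.069), Mcm3 (0.13), Mcm5 (−0.15) and Mcm6 (−0.35), and the ribosomal RNA term Ccna2 (0.035) and Nusap1 (0.094). Leaving out 1 library turned Aurka (−0.25 to 0.034), Ccna2 (−0.37 to 0.21), Cdc20 (−0.014 to 0.15), Mcm2 (−0.025 to 0.27), Mcm5 (−0.020 to 0.18), Mcm6 (−0.13 to 0.32), Mki67 (−0.18 to 0.043), Nusap1 (−0.30 to 0.17), Pcna (−0.27 to 0.037), Prc1 (−0.27 to 0.10) and Ube2c (−0.057 to 0.23). The cause of these turns was not tested.

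Same-numbered libraries deviated from their group means with correlations of −0.31, 0.70, −0.15 and 0.44, so the number was not taken as a pairing. With the replicate number as a block 0 genes and 0 members were called and the median of the members was −0.06, and on 6 libraries 6 genes were called. The planned count test on recovered reads was not run, because some values were fractions of a read. With no filter all 32 members were tested and 0 called, 2 with an unadjusted limma p under 0.05, Birc5 and Bub1b.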
